A study of Mus musculus with 9 samples.

Results

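The comparison set all operated mice against control mice in gene expression arrays of the mouse hippocampus, whether or not the operated mice had received Maresin 1. Of the 9 arrays of the series, the 6 titled for surgery, alone or with Maresin 1, were pooled as operated, and the 3 titled for control mice stood against them. All mice were C57BL/6 and 12 to 14 weeks old. The 3 surgery mice had a tibia fracture made by orthopaedic surgery, and the 3 Maresin 1 mice were given Maresin 1, a pro-resolving lipid of macrophages, before the same operation. Hippocampi were taken 72 h after surgery. The labels do not say whether control mice were anaesthetised, sham operated or given a vehicle, nor give the Maresin 1 dose, so anaesthesia, pain relief and handling cannot be told apart from the fracture itself. No group of Maresin 1 without surgery was among these arrays. Titles call the 3 arrays of a group biological replicates, and p-values measure the spread among these samples.

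Small vessels of the brain are lined by endothelial cells whose transporters and tight junctions form the blood-brain barrier, and pericytes and smooth muscle cells wrap them and set their tone. Tissue injury far from the brain releases cytokines and danger signals into the blood, and the vessel wall is the part of the brain that meets them directly. Interferon response genes, cytokine receptors, microglia and astrocytes are the usual readouts of inflammation within the tissue.

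Levels below are log2 of the quantile normalised signal plus 16, so that a difference of 1 is 2-fold in that sum. Dentate granule, CA1 and CA3 neuron markers, which define the hippocampus, were above the 95th percentile of olfactory receptor genes (a level of 5.86) for 17 of 17, 11 of 11 and 11 of 11 genes. Control replicates 2 and 3 stood apart from the other 7 arrays in choroid plexus genes, the epithelium that secretes cerebrospinal fluid. The mean level of the 22 genes of that list was 9.15 and 9.48 in these controls, 6.23 in control replicate 1 and 6.31 to 6.46 in the operated arrays. Values against control replicate 1 alone, without 1 array, or from a fit with choroid plexus level as a covariate are therefore given beside many of the results that they move. The covariate fit leans on control replicate 1, the only control with a low level, so it is close to the comparison with that array alone. The median deposited signal ran from 54.1 to 100.1 across arrays before normalisation.

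No gene passed the limma test at an adjusted p under 0.05 among 18820 genes (0%). Relaxing the threshold to 0.10 left 3 genes (0.0159%), all higher in operated mice and each with an adjusted p of 0.0649: Eapp, Acta2 and Cxcl12. At an unadjusted p under 0.05, 1066 genes were higher (5.66%) and 793 lower (4.21%), so 57.3% of these were higher. Scaling each array to one median instead of quantile normalisation gave 696 higher and 271 lower at that p, 72% higher, and called 11 genes higher and 42 lower, of which 17 were choroid plexus genes. The 11 were Acta2, Pros1, Ifit3b, Slfn5, Flt1, Osmr, Stoml3, Tm4sf1, Cxcl12, Adgrl4 and She. With no normalisation between arrays, 44 were higher and 292 lower at that p, 13.1% higher. In 558 genes all 6 operated arrays lay above all 3 control arrays (2.96%), and in 310 they lay below (1.65%). Leaving out control replicate 1, which leaves the controls with choroid plexus signal, called 42 genes higher and 201 lower. Leaving out Maresin 1 replicate 2 called Acta2 and Flt1, and leaving out any other single array called none. The 2.96% and 1.65% are the background for the counts of groups that do not overlap. Likewise, 5.66% and 4.21% are the background for list counts at an unadjusted p under 0.05. Over all genes the median difference was 0.01, the 5th and 95th percentiles were -0.16 and 0.18, and 53.7% of differences were above 0.

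The 30 genes with the smallest p were 25 higher and 5 lower in operated mice. They were chosen among genes with no overlap, a difference of 0.3 or more and a mean above that of the median gene (7.44). Genes outside these limits could have a smaller p than some of the 30. Examples are Pros1, Osmr and the choroid plexus gene Tmem72, with lower means, and Psma1, with a difference of 0.26. Of the 30, 28 kept over 0.5 of the difference when control replicate 1 alone stood for control. The exceptions were Rgs5, at 0.14, and Sh3d19, at -0.08. The rule of no overlap had already set the operated arrays of all 30 genes beyond control replicate 1, so it partly fixed this count. Adgrl4 was at 0.31, Rsl1 at 0.19, Zfp954 at 0.23 and Eola1 at 0.31 against that control, and Zfp954 was at 0.28 without control replicate 2.

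**Figure D1:**
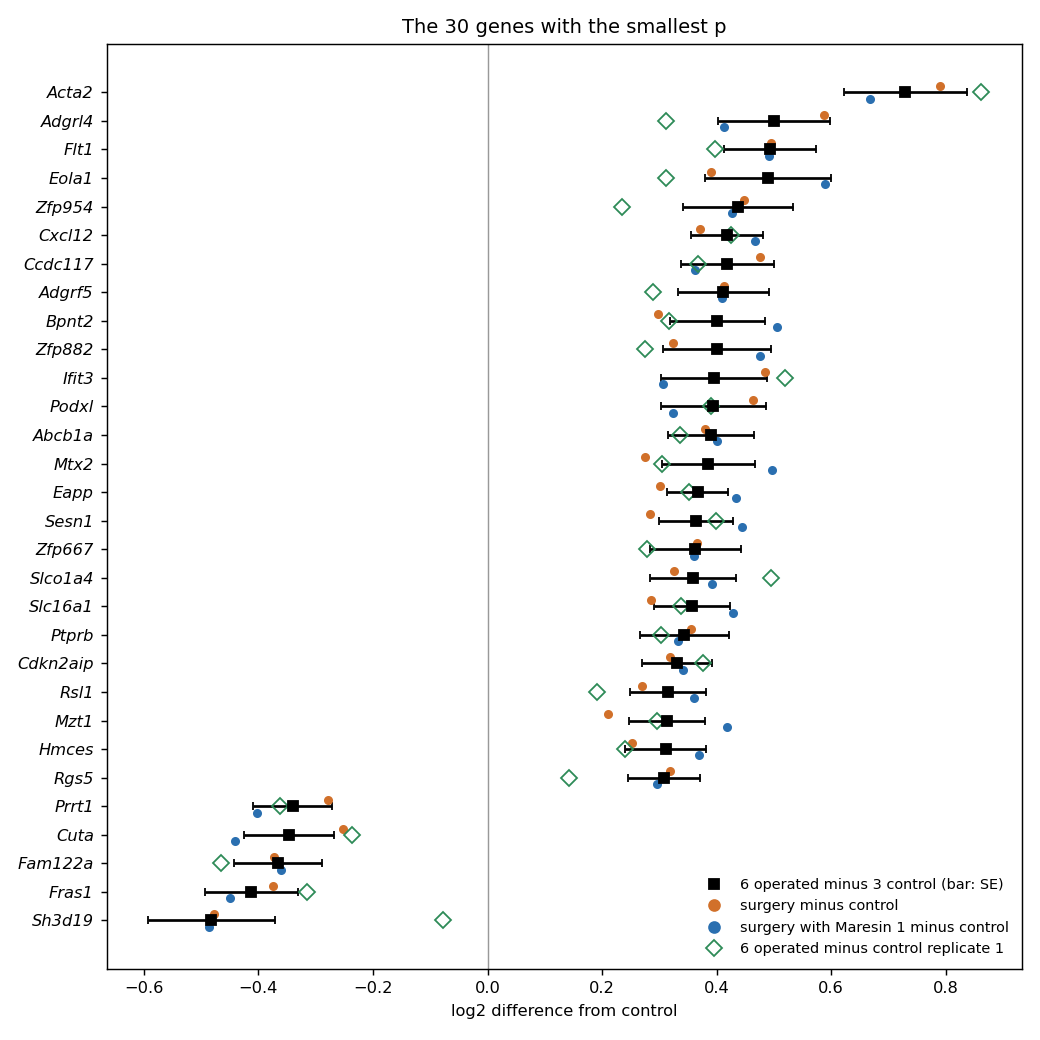
Log2 differences from control of the 30 genes with the smallest p among genes within the limits on overlap, size and mean level. Black squares with bars are the 6 operated minus the 3 control arrays with the standard error of the limma fit, orange points surgery minus control, blue points surgery with Maresin 1 minus control, and green diamonds the 6 operated arrays minus control replicate 1. The black squares run from -0.48 for Sh3d19 to 0.73 for Acta2. Orange and blue points of a gene lie on the same side of 0 throughout, which the rule of no overlap requires.

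Genes of the vessel wall were among those with the smallest p. Acta2, the smooth muscle actin that vessel wall cells contract with, stood at 7.91, 8.01 and 8.21 in the control arrays, at 8.84, 8.85 and 8.81 after surgery and at 9.01, 8.41 and 8.71 after surgery with Maresin 1. The groups did not overlap, and the lowest operated array was Maresin 1 replicate 2. The difference was 1.66-fold (log2 0.73, SE 0.11, adjusted p = 0.0649 by limma, n = 6 and 3). Leaving out 1 array at a time gave differences of 0.66 to 0.81. Without Maresin 1 replicate 2 the difference was 0.80 (adjusted p = 0.00517 by limma). That p follows the removal of the operated array nearest control and is no separate support. Myh11, the smooth muscle myosin heavy chain, stood at 5.99 to 6.38 in control and 6.49 to 6.70 in operated arrays, 0.44 higher (SE 0.09, adjusted p = 0.178 by limma). Its partner light chain Myl9 was higher by 0.34 (SE 0.08) and the pericyte signalling regulator Rgs5 by 0.31 (SE 0.06), or 0.15 with choroid plexus level as covariate.

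Of the 16 genes of the pericyte and smooth muscle list, 15 were higher, 7 had an unadjusted p under 0.05 and 5 did not overlap, namely Acta2, Rgs5, Myh11, Myl9 and the potassium channel gene Kcnj8. None was lower at that p. The median difference was 0.14, and it was 0.12 against control replicate 1 alone and 0.09 without control replicate 2. In 10 of the 16 genes Maresin 1 replicate 2 was the lowest operated array, and the list score of that array, -0.10, lay within the control range of -0.22 to -0.07. A list score averages, over the genes of a list, how far an array lies from the 9-array mean.

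The endothelial list had a larger median. Of its 20 genes 19 were higher in operated mice, 14 had an unadjusted p under 0.05, and 7 did not overlap, or 35% beside 2.96% of all genes. The median difference was 0.28, against 0.01 over all genes, and it was 0.29 against control replicate 1 alone and 0.29 against controls 2 and 3. In bulk tissue, more cells of a type and more RNA per cell cannot be told apart.

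Flt1, which encodes a receptor and trap for vascular endothelial growth factors, stood at 8.87, 8.77 and 8.67 in control, 9.20, 9.33 and 9.27 after surgery and 9.35, 9.01 and 9.43 with Maresin 1. All operated arrays were above all controls, and Maresin 1 replicate 2 was again the lowest of them. The difference was 1.41-fold (log2 0.49, SE 0.08, adjusted p = 0.108 by limma, and 0.0172 without that array). Leaving out 1 array at a time gave 0.44 to 0.54, and the lower p follows the removal of the operated array nearest control. The endothelial adhesion receptor Adgrl4 stood at 8.12 to 8.53 in control and 8.61 to 9.05 in operated arrays, 0.50 higher (SE 0.10), or 0.31 with choroid plexus level as covariate. Its relative Adgrf5 was higher by 0.41 (SE 0.08), the surface sialomucin Podxl by 0.39 (SE 0.09) and Tek, the receptor for angiopoietins, by 0.44 (SE 0.10). Ptprb, the phosphatase that restrains Tek, was higher by 0.34 (SE 0.08), with control arrays at 8.42 to 8.53 and operated arrays at 8.58 to 9.02. Endothelial list scores were -0.16, -0.18 and -0.22 in control, 0.10 to 0.15 after surgery and 0.22, -0.12 and 0.07 with Maresin 1. Maresin 1 replicate 2 was the lowest operated array in 14 of the 20 genes, yet its score was still above all 3 controls.

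**Figure D2:**
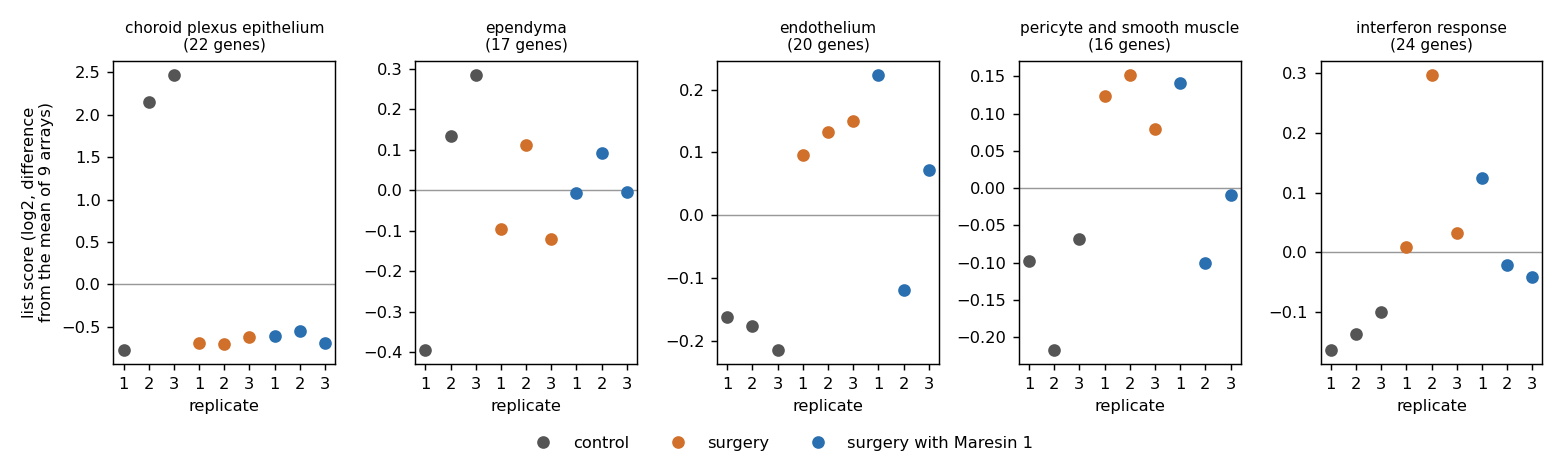
Scores of 5 gene lists in each of the 9 arrays (log2), by replicate number within control (grey), surgery (orange) and surgery with Maresin 1 (blue). Control replicates 2 and 3 stand at 2.15 and 2.47 for choroid plexus genes against -0.77 in control replicate 1, while in endothelium the 3 controls lie together between -0.22 and -0.16, below every operated array.

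Ligands and receptors of vessel growth were mixed outside the endothelial members. Of 18 genes, 5 were higher at an unadjusted p under 0.05 and none lower, and Flt1, Tek and Pgf did not overlap. Flt1 and Tek are also counted in the endothelial list. Pgf, a growth factor that binds Flt1, was higher by 0.21 (SE 0.08), with control at 5.95 to 6.20 and operated arrays at 6.28 to 6.35. The lymphatic growth factor receptor Flt4 differed by 0.28 (SE 0.10) with overlap. Its arrays, at 5.17 to 5.83, were all below the olfactory receptor level of 5.86, so the size of its difference is uncertain. Without control replicate 2 the differences were 0.13 for Pgf and 0.17 for Flt4. The median of the list was 0.10.

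Cxcl12, the chemokine ligand of Cxcr4 that vessel and dentate cells make, stood at 8.11, 8.19 and 8.05 in control, 8.44, 8.53 and 8.49 after surgery and 8.56, 8.53 and 8.67 with Maresin 1. The gap between the highest control and the lowest operated array was wider than the range of either group. The difference was 1.34-fold (log2 0.42, SE 0.06, adjusted p = 0.0649 by limma) and 0.42 against control replicate 1 alone. Cxcl12 was the only one of 15 chemokine and chemokine receptor genes of vessels that did not overlap. The monocyte chemokine Ccl2 differed by -0.26 (SE 0.12), and by 0.02 against control replicate 1, where choroid plexus signal was low, and by -0.40 without that control. The neuronal chemokine Cx3cl1 differed by -0.10 (SE 0.04).

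Pros1 encodes protein S, an anticoagulant that also binds the TAM receptors with which phagocytes clear dying cells. It stood at 6.98, 6.75 and 7.04 in control, 7.29, 7.51 and 7.46 after surgery and 7.72, 7.46 and 7.56 with Maresin 1. All operated arrays were above all controls, by 1.49-fold in the mean (log2 0.58, SE 0.10, adjusted p = 0.108 by limma). The other TAM ligand, Gas6, differed by -0.29 (SE 0.08) over all controls, by -0.01 against control replicate 1 and by -0.03 with choroid plexus level as covariate. Plat, tissue plasminogen activator, was higher by 0.21 (SE 0.06) without overlap, and Thbd, the endothelial thrombin receptor thrombomodulin, by 0.29 (SE 0.11) with overlap. Of the 14 genes of this list 5 were higher and 1 lower at an unadjusted p under 0.05.

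Several transporters of the barrier were higher. The median of 15 genes was 0.145, and 0.10 without surgery replicate 2. Of the 15, 6 were higher and 1 lower at an unadjusted p under 0.05. Without overlap were 5, or 33.3% beside 2.96% of all genes: Slc16a1, Abcb1a, Slco1a4, Slc38a5 and Abcg2. Abcb1a and Slco1a4 are also counted in the endothelial list and Slc16a1 in lactate and glucose handling, so these counts are not separate. Abcb1a, which encodes the drug efflux pump P-glycoprotein, stood at 7.917 to 8.002 in control and 8.14 to 8.48 in operated arrays, 0.39 higher (SE 0.08). Slc16a1, the lactate carrier MCT1, stood at 9.26, 9.17 and 9.29 in control, 9.49, 9.63 and 9.46 after surgery and 9.79, 9.60 and 9.62 with Maresin 1. Its difference was 0.36 (SE 0.07, adjusted p = 0.172 by limma) with every operated array above every control. The organic anion carrier Slco1a4 was higher by 0.36 (SE 0.08) and the glutamine carrier Slc38a5 by 0.40 (SE 0.09). Slc2a1, the glucose transporter of the barrier, was higher by 0.24 (SE 0.06), and its lowest operated array, at 10.96, lay just below the highest control, at 10.97. Of 20 genes of lactate and glucose handling, Slc16a1 alone did not overlap above, the kinase gene Pdk1 did not overlap below, and the median was 0.04, or 0.01 without control replicate 2.

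**Figure D3:**
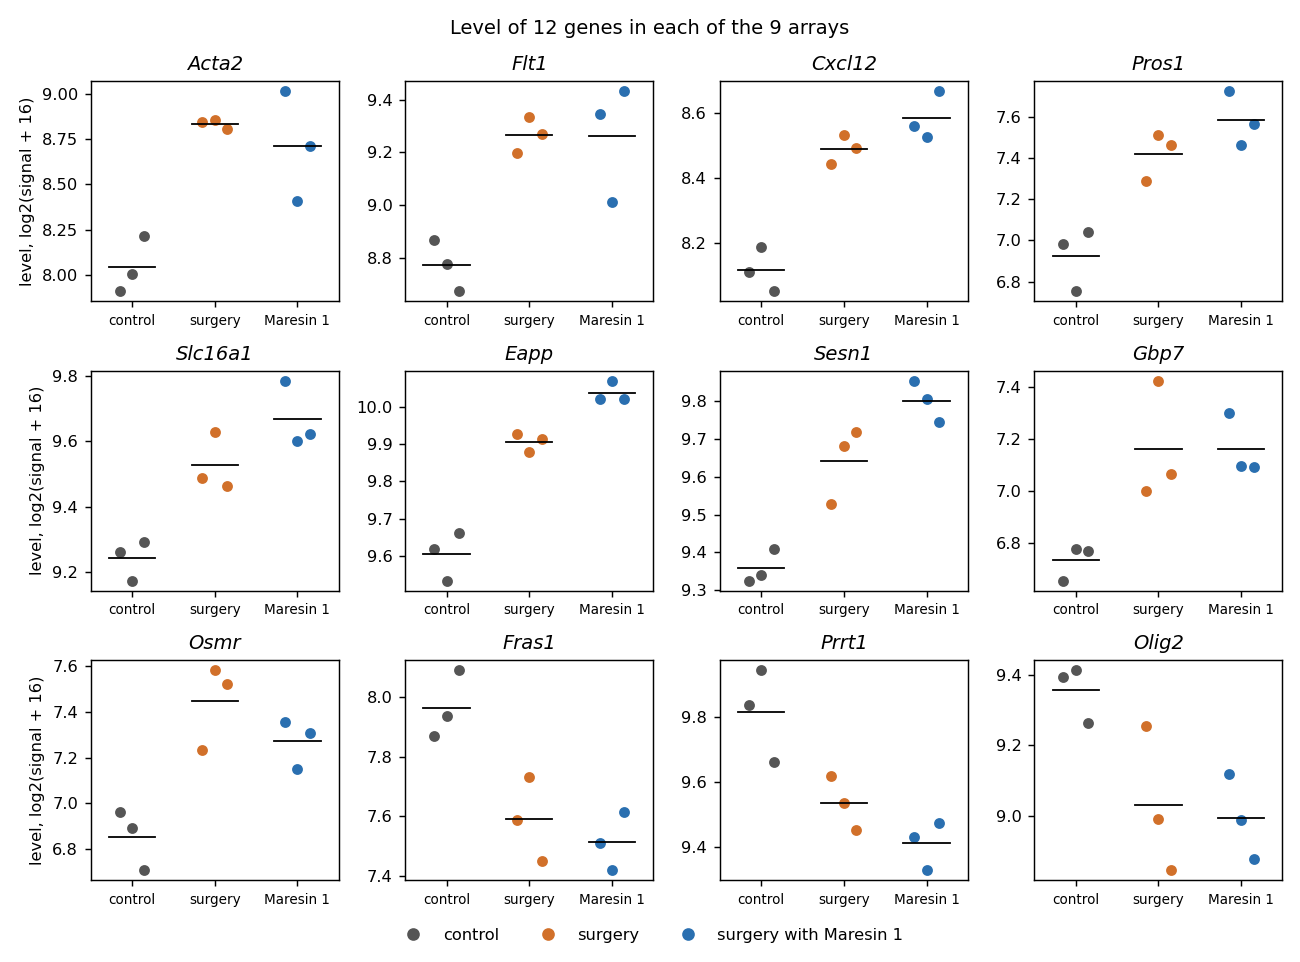
Levels of 12 genes, as log2 of normalised signal plus 16, in each array of the control, surgery and surgery with Maresin 1 groups, with bars at group means. Each panel has its own axis, and in each of the 12 genes the 6 operated arrays do not overlap the 3 controls, above them in Acta2, Flt1, Cxcl12, Pros1, Slc16a1, Eapp, Sesn1, Gbp7 and Osmr and below them in Fras1, Prrt1 and Olig2.

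Interferon response genes, which cells switch on through STAT and IRF factors, also stood above the background. Of 24 genes, 21 were higher, 10 higher and 1 lower at an unadjusted p under 0.05, and 8 did not overlap above (Gbp7, Ifit3, Oasl2, Ifit2, Gbp2, Irf7, Rsad2 and Gbp3). The median difference was 0.21, and 0.20 against control replicate 1 alone. Surgery replicate 2 was the highest operated array in 17 of the 24 genes, and its list score, 0.30, stood above 0.13 for Maresin 1 replicate 1 and -0.04 to 0.03 in the other operated arrays. Control scores were -0.16, -0.14 and -0.10. Without surgery replicate 2 the median of the list was 0.16.

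Gbp7, a guanylate binding protein of cell defence, stood at 6.65, 6.78 and 6.77 in control, 6.999, 7.43 and 7.06 after surgery and 7.30, 7.09 and 7.09 with Maresin 1. It was 1.35-fold higher (log2 0.43, SE 0.10, adjusted p = 0.201 by limma), with no overlap. Gbp2 stood at 5.94 to 6.10 in control and at 6.31 to 7.49 in operated arrays, the top value being surgery replicate 2, for a difference of 0.59 (SE 0.20). Ifit3, an RNA binding antiviral protein, was higher by 0.40 (SE 0.09) and Oasl2 by 0.36 (SE 0.10). The related Ifit2 was higher by 0.37 (SE 0.11), but by 0.21 without control replicate 2 and by 0.15 against control replicate 1. The guanylate binding and Ifit genes have near copies, and probe sets may read more than 1 of them.

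The promoters of 3 of these genes are shown because they carry the letters GAAA, any 2 bases and GAAA again, the core that STAT and IRF complexes recognise in interferon genes. RefSeq windows of 300 bases (250 before to 50 after a start site, assembly GRCm38.p6) were searched on both strands, and 13 of the 25 windows of 21 interferon list genes held the motif, beside 3.44% of all 32851 windows. Of the 13 genes with it, 5 did not overlap above, beside 8 of all 24 genes of the list. Whether the motif goes with the difference was not tested. The windows lie at chr3:142530086-142530385 for Gbp7, chr3:142620413-142620712 for Gbp2 and chr19:34583279-34583578 for Ifit3, all on the plus strand. Capitals mark the match, which reads on the opposite strand and starts 53 bases before the start site in Gbp7, 59 in Gbp2, and 156 and 122 in Ifit3. A match describes letters and not a bound site.
Gbp7: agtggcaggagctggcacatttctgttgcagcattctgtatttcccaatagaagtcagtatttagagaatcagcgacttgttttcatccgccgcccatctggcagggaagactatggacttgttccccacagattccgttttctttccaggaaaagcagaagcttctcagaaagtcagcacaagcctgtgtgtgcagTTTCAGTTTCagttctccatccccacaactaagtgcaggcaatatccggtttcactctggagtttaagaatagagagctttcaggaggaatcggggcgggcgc
Gbp2: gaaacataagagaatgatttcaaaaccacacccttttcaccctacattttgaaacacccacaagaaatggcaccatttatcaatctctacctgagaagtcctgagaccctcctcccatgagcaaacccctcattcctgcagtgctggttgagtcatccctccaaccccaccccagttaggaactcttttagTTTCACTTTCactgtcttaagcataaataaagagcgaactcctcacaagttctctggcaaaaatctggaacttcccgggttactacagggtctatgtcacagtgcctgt
Ifit3: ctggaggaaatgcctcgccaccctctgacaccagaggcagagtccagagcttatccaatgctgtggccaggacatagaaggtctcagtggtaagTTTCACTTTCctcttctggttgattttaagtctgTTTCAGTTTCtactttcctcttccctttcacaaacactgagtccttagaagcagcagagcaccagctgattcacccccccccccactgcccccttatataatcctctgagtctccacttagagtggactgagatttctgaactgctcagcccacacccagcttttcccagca

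The same search in the vessel lists found 1 window for each of the motifs below. The palindrome TGACGTCA, the cyclic AMP response element, was in 1 of 18 endothelial windows (Flt1), or 5.56%, beside 1.79% of all windows. The CArG box, the serum response factor motif of smooth muscle genes, was in 1 of 11 windows of the pericyte and smooth muscle list, or 9.09%, beside 1.63%. A single window supports no comparison of these shares. That window belongs to Myl9 (chr2:156775214-156775513, plus strand) and is shown as the contractile gene with a match, in capitals, which starts 161 bases before the start site.
Myl9: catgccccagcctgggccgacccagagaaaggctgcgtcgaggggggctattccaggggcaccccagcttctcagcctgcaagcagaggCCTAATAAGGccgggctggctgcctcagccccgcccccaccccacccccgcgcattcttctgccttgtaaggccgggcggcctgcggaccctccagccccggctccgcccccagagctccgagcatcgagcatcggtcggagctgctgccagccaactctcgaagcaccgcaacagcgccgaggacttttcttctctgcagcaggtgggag

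Receptors led the cytokine list. Osmr, the oncostatin M receptor of endothelium and astrocytes, stood at 6.96, 6.89 and 6.71 in control, 7.23, 7.58 and 7.52 after surgery and 7.36, 7.15 and 7.31 with Maresin 1. It was 1.42-fold higher without overlap (log2 0.50, SE 0.10, adjusted p = 0.178 by limma). The interleukin 1 receptor Il1r1 differed by 0.31 (SE 0.10) and the alarmin Il33 by 0.30 (SE 0.10), both with overlap, and the interferon gamma receptor Ifngr1 by 0.16 (SE 0.06) without it. Il1b, Tnf and Il6, added here because the series title names neuroinflammation, differed by 0.00 (SE 0.09), 0.08 (SE 0.11) and 0.03 (SE 0.10), and none was above the olfactory receptor level, so a difference could hardly be detected in them. The median of the 20 genes of the list was 0.09, 5 being higher and 0 lower at an unadjusted p under 0.05.

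Tnfaip3 encodes A20, an inhibitor of NF-kB signalling that NF-kB itself induces. It stood at 6.59 to 6.83 in control and 7.04 to 7.27 in operated arrays, 0.39 higher (SE 0.08, adjusted p = 0.178 by limma). The other 16 genes of the NF-kB and inflammasome list gave no second such case, since Nfkbia differed by 0.14 (SE 0.08) with overlap (0.07 against control replicate 1) and Rela, an NF-kB subunit, by -0.11 (SE 0.06) with all operated arrays below control. Only 9 of the 17 genes were above the olfactory receptor level, so a difference could hardly be detected in the rest. The median of the list was 0.04, and it was 0.02 without control replicate 2 and -0.03 with no normalisation between arrays.

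Glial markers differed by less. In microglia, 14 of 17 genes were higher, 3 with an unadjusted p under 0.05, and the median was 0.11 over all controls and against control replicate 1, and 0.07 without Maresin 1 replicate 1. Itgam, the complement receptor subunit CD11b, was the single one without overlap, at 7.72 to 7.945 in control and 7.947 to 8.25 in operated arrays (0.26, SE 0.08). The receptor Trem2 differed by 0.19 (SE 0.08) with overlap. Astrocyte identity genes had a median of 0.04 with no gene free of overlap. Against control replicate 1 alone their median was 0.13, with all 15 above that array, and it was 0.03 without it. Gfap, the filament of reactive astrocytes, differed by 0.15 (SE 0.07), by 0.27 against control replicate 1 and by 0.09 without it.

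In the reactive astrocyte list 7 of 25 genes were higher at an unadjusted p under 0.05, and Osmr, Gbp2, Stat3 and Lcn2 did not overlap. Osmr is also counted in the cytokine list and Gbp2 in the interferon list. The median of the reactive astrocyte list was 0.08, 0.18 against control replicate 1 and 0.01 against controls 2 and 3. Lcn2, the secreted iron carrier lipocalin 2, stood at 5.42, 4.95 and 5.08 in control, 5.48, 9.40 and 6.12 after surgery and 5.47, 7.02 and 7.90 with Maresin 1. Both groups of operated mice thus held arrays near control and arrays far above it (1.75, SE 0.66, adjusted p = 0.396 by limma). All 3 controls and both operated arrays near them lay below the olfactory receptor level of 5.86, so the separation of 5.47 from 5.42 and the size of the difference rest on unmeasured levels. Alas2, the haem synthesis enzyme of red cell precursors, was also highest in surgery replicate 2, at 7.93, with control at 6.26 to 6.50 and other operated arrays at 6.54 to 7.44 (0.76, SE 0.23). The remaining 3 measured genes of the red cell list differed by 0.03 to 0.05, a sign that turned in Epb42 and Slc4a1 with no normalisation, and of the 11 neutrophil markers only Lcn2 did not overlap. Only 2 of the 4 measured red cell genes and 2 of the 11 neutrophil markers were above the olfactory receptor level. In the rest a difference could hardly be detected. The part that blood cells in the tissue play in the interferon and Lcn2 values of surgery replicate 2 was not tested.

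Olig2, the transcription factor of oligodendrocytes and their precursors, was among the genes lower in operated mice. It stood at 9.39, 9.41 and 9.26 in control, 9.26, 8.99 and 8.85 after surgery and 9.12, 8.99 and 8.88 with Maresin 1 (-0.34, SE 0.08, adjusted p = 0.201 by limma). The highest operated array, surgery replicate 1, came within 0.01 of the lowest control. The precursor proteoglycan gene Cspg4 differed by -0.21 (SE 0.07) with overlap (-0.32 against control replicate 1), and the 13 precursor genes had a median of 0.00, so the list did not share the difference of Olig2.

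Eapp, which encodes a protein that binds E2F transcription factors, had the smallest p of all genes. It stood at 9.62, 9.53 and 9.66 in control, 9.93, 9.88 and 9.91 after surgery and 10.02, 10.07 and 10.02 with Maresin 1, so that the 3 groups formed 3 separate bands. The operated arrays were 1.29-fold higher (log2 0.37, SE 0.05, adjusted p = 0.0649 by limma). In a fit with 3 group means Eapp was the single gene called, at an adjusted p of 0.0345.

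Sesn1, a sestrin that p53 induces and that restrains mTORC1, had the same order, with 9.32 to 9.41 in control, 9.53 to 9.72 after surgery and 9.74 to 9.86 with Maresin 1. Its difference was 0.36 (SE 0.06, adjusted p = 0.172 by limma). Sesn2 was higher by 0.24 (SE 0.08) without overlap (0.15 without control replicate 2) and Sesn3 by 0.14 (SE 0.06) with it. Of the 15 genes in the list of sestrins and p53 targets, 6 were higher at an unadjusted p under 0.05 and none lower, and the median was 0.09, but 0.05 without control replicate 2 and 0.02 against control replicate 1. Cdkn2aip, which encodes a partner of the tumour suppressor ARF, was higher by 0.33 (SE 0.06), though its second probe set differed by 0.11 (SE 0.09).

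The other higher genes among the 30 had varied roles. Bpnt2, a phosphatase of the Golgi that serves sulphation, stood at 9.33 to 9.68 in control and 9.77 to 10.07 in operated arrays (0.40, SE 0.08). Hmces, which shields abasic sites in DNA, stood at 7.69 to 7.92 in control and 8.06 to 8.24 in operated arrays (0.31, SE 0.07). Both had no overlap, and in both control replicate 2 was the lowest array. Mzt1, a small subunit of the gamma-tubulin complex, was higher by 0.31 (SE 0.07), and its second probe set by 0.21 (SE 0.06), also without overlap. Eola1 was higher by 0.49 (SE 0.11) and its second probe set by 0.35 (SE 0.10), so that both probe sets of each of these genes separated the groups. Ccdc117 stood at 7.47 to 7.67 in control and 7.90 to 8.21 in operated arrays (0.42, SE 0.08). Rsl1, a KRAB zinc finger repressor, was higher by 0.32 (SE 0.07) and by 0.19 against control replicate 1.

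Clock and stress hormone genes gave few separate members. Ciart, a repressor of the circadian clock, stood at 7.41 to 8.06 in control and 8.02 to 8.41 in operated arrays (0.48, SE 0.12), with overlap, and differed by 0.30 without control replicate 2. Of 18 clock genes, 15 were higher, 5 at an unadjusted p under 0.05, and only Cry2 did not overlap. Their median was 0.11, or 0.04 without control replicate 3 and 0.05 against control replicate 1. The hour of tissue collection is not in the labels. Among 17 glucocorticoid targets Errfi1, a feedback inhibitor of the EGF receptor, did not overlap (0.26, SE 0.07, and 0.14 against control replicate 1), and the median was -0.01, or 0.08 after scaling to one median.

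Genes of protein turnover and mitochondria split by gene. Of 49 proteasome genes, 38 were higher, 8 higher and 0 lower at an unadjusted p under 0.05, and the core subunit Psma1 (0.26, SE 0.05), the deubiquitinase Psmd14 (0.28, SE 0.06) and the assembly chaperone Psmd5 (0.20, SE 0.07) did not overlap. Psma1 stood at 10.18 to 10.32 in control, 10.40 to 10.50 after surgery and 10.56 to 10.63 with Maresin 1. The cytosolic ribosome had 61 of 83 genes higher at a median of 0.05, with 9 higher and 1 lower at that p. Among the probe sets that stood for these genes, that of the L7-like gene Rpl7l1 alone did not overlap. Some other probe sets of Rpl3 (such as 0.22, SE 0.05) and Rpl15 (0.14, SE 0.04) did not overlap either, while others of both genes did. The median of the ribosome list was 0.00 for surgery minus control and 0.08 for surgery with Maresin 1 minus control. The list score of surgery replicate 3 was -0.11, below all 3 controls (-0.05 to 0.01). In surgery replicates 1 and 2 the score was 0.01 and 0.03, and with Maresin 1 it was 0.03 to 0.09. Between Maresin 1 and surgery 13 of the 83 genes had an unadjusted p under 0.05, beside 5.66% of all genes. For surgery and for surgery with Maresin 1 against control, the proteasome medians were 0.03 and 0.07, and Psmd14 was at 0.19 and 0.36. Ribosomal protein genes have many near-identical pseudogenes that share probe signal.

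Mtx2, a metaxin of the outer mitochondrial membrane, was higher by 0.39 (SE 0.08), while its partner Mtx1 differed by -0.18 (SE 0.06), with overlap (-0.11 against control replicate 1). Mtx2 stood at 9.82, 9.55 and 9.85 in control, 10.07, 10.04 and 9.93 after surgery and 10.23, 10.18 and 10.29 with Maresin 1. The other 26 genes of mitochondrial import held no second gene free of overlap. Ciao2a, of cytosolic iron-sulphur cluster assembly, was higher by 0.31 (SE 0.07), with 9.38 to 9.49 in control and 9.57 to 9.95 in operated arrays. It differed from control by 0.21 after surgery and by 0.42 after surgery with Maresin 1. Between these groups the unadjusted p was 0.00702 and the adjusted p 0.859 by limma.

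Respiratory chain subunits were lower in single members. In complex I 8 of 43 genes were lower and 1 higher at an unadjusted p under 0.05, beside 4.21% lower and 5.66% higher of all genes. Ndufc1 (-0.22, SE 0.06) and Ndufa12 (-0.12, SE 0.04) were below control without overlap, or 4.65% beside 1.65% of all genes. In complexes II to V 6 of 46 were lower and 3 higher at that p. Atp5e, Atp5g1, Cox8b and Uqcrfs1 were below control without overlap (8.70%) and Cox6a1 above (2.17%, beside 2.96% of all genes). The second probe sets of Ndufc1 (-0.15, SE 0.07), Atp5g1 (-0.14, SE 0.05) and Cox6a1 (0.08, SE 0.08) overlapped. Atp5g1, a ring subunit of ATP synthase, stood at 11.68 to 11.83 in control and 11.51 to 11.67 in operated arrays (-0.15, SE 0.04). Against control replicate 1 alone Ndufa12 was at -0.08, Atp5g1 at -0.08 and Cox8b at -0.16. Cox6a1 was at 0.17 without control replicate 2. The medians of both lists were -0.00 and -0.03, and both turned positive, at 0.05 and 0.03, when arrays were scaled to one median. The mitochondrial ribosome had 3 genes without overlap on each side (4.05%), beside 2.96% above and 1.65% below over all genes. Among them Mrps21 was at -0.32 (SE 0.08) and Mrps25 at 0.30 (SE 0.08), or 0.16 against control replicate 1.

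Zinc finger genes of the Zfp series made up several of the 30 genes with the smallest p, namely Zfp667, Zfp954 and Zfp882. Many encode KRAB proteins that silence transposable elements. Of 343 measured, 21 did not overlap above and 8 below, beside the background of 2.96% and 1.65%, and the median was 0.03. Zfp667 stood at 8.13 to 8.27 in control and 8.31 to 8.71 in operated arrays (0.36, SE 0.08). Zfp366 was the highest of the set (0.47, SE 0.10). Against control replicate 1 alone the median of the 343 was 0.00, and with no normalisation it was -0.00.

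**Figure D4:**
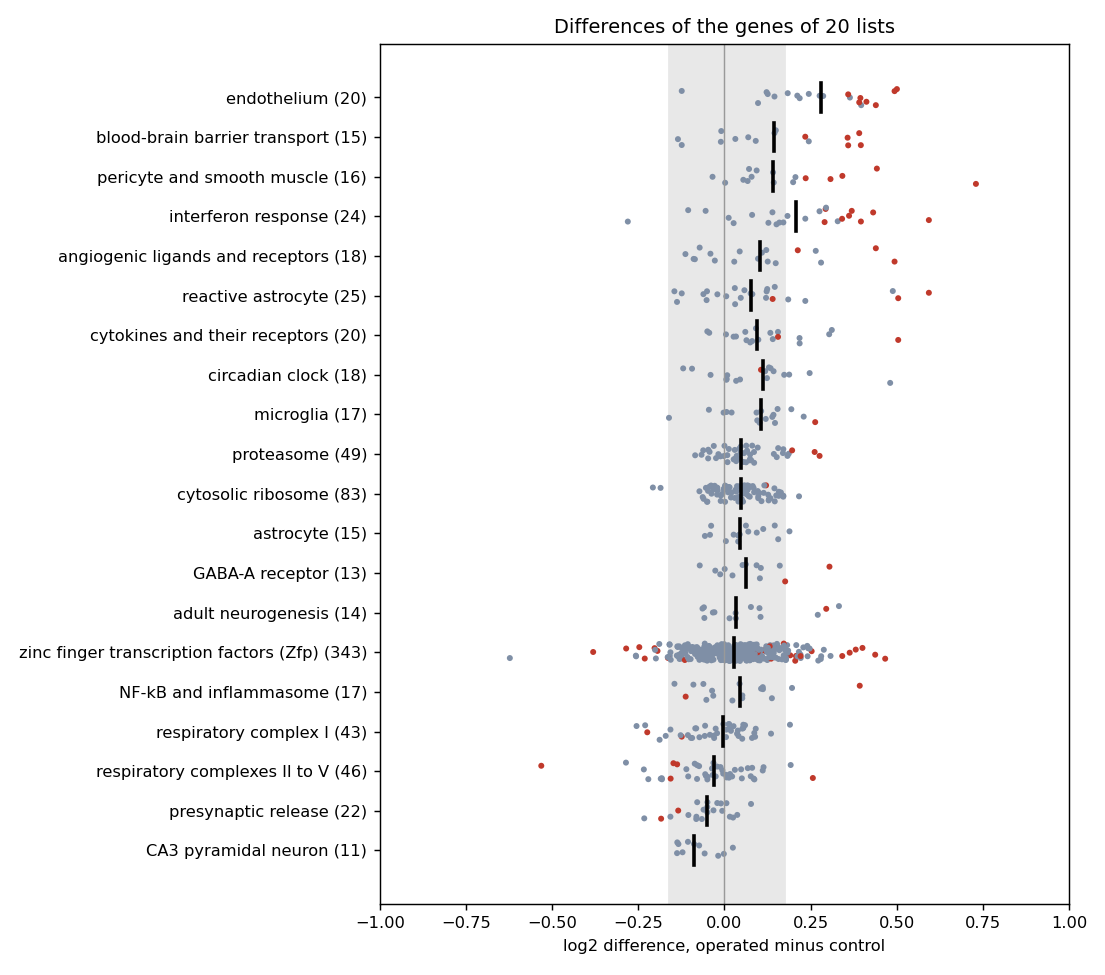
Log2 differences, operated minus control, of the genes of 20 lists, with 1 gene (Lcn2) beyond the axis. Each point is a gene, red where the 6 operated and 3 control arrays do not overlap, black bars are list medians, and the grey band runs from the 5th to the 95th percentile of all genes. The endothelial list has its median at 0.28 and the interferon list at 0.21, the right-most bars of the 20. The band describes single genes and is no scale for a median.

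Neuron marker lists held no gene free of overlap in dentate granule, CA1 or CA3 cells. The dentate median was 0.07, but 0.23 against control replicate 1 and -0.09 without it, and it was -0.03 for surgery and 0.14 for surgery with Maresin 1 against control. The CA1 median was 0.04, but -0.08 without control replicate 2, and 0.06 and -0.06 in those groups. The CA3 median was -0.09, with -0.15 against control replicate 1, and -0.08 and -0.09 in those groups. Prrt1, an auxiliary protein of AMPA receptors, was the clearest synaptic gene, at 9.84, 9.94 and 9.66 in control, 9.62, 9.53 and 9.45 after surgery and 9.43, 9.33 and 9.47 with Maresin 1 (-0.34, SE 0.07, adjusted p = 0.178 by limma). The active zone scaffolds Bsn (-0.18, SE 0.06) and Pclo (-0.13, SE 0.05) were below control without overlap. A second probe set of Bsn differed by -0.11 (SE 0.10) with overlap. In presynaptic release genes 17 of 22 were lower at a median of -0.05, which was 0.01 after scaling to one median, -0.01 for surgery and -0.09 for surgery with Maresin 1. The GABA-A receptor subunits Gabra3 (0.30, SE 0.09) and Gabra4 (0.18, SE 0.06) were above control without overlap, among 13 genes with a median of 0.06. Gabra3 differed by 0.18 against control replicate 1 and by 0.14 without control replicate 2, at 10.05 the lowest array, and the median was then 0.04. Sox11, a factor of newborn neurons, was higher by 0.30 (SE 0.08), with control at 8.29 to 8.33 and operated arrays at 8.41 to 8.79, while the newborn neuron marker Dcx differed by -0.06 (SE 0.07).

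The remaining genes with the smallest p on the lower side were Fras1, Fam122a, Cuta and Sh3d19. Fras1, a basement membrane protein, stood at 7.87, 7.94 and 8.09 in control, 7.59, 7.73 and 7.45 after surgery and 7.51, 7.42 and 7.62 with Maresin 1 (-0.41, SE 0.08, adjusted p = 0.178 by limma). It was -0.32 against control replicate 1, with every operated array below it. Fam122a, an inhibitor of protein phosphatase 2A, differed by -0.37 (SE 0.08), and its second probe set by -0.11 (SE 0.08). Sh3d19 stood at 8.38, 9.06 and 8.90 in control and 8.22 to 8.37 in operated arrays, so its difference of -0.48 rested on control replicates 2 and 3, which carried the choroid plexus signal.

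Choroid plexus genes gave the largest differences and followed those same arrays. All 22 were lower in the mean of operated arrays, 21 at an unadjusted p under 0.05, at a median of -1.83. Against control replicate 1 alone the median was 0.07. Slc4a5, a bicarbonate transporter of this epithelium, stood at 5.24, 11.33 and 11.70 in control and 4.92 to 5.29 in operated arrays. Kl, which encodes klotho, stood at 8.08, 10.22 and 10.53 in control and 7.93 to 8.12 in operated arrays. How the tissue was dissected is not in the labels. With the choroid plexus level of each array as a covariate limma called 0 genes, with 925 higher and 418 lower at an unadjusted p under 0.05, and the median was 0.30 in endothelial and 0.20 in interferon genes. Among the values nearer 0 in that fit were -0.11 in Sh3d19, -0.03 in Gas6 and 0.15 in Rgs5. Genes of at least 1.5-fold difference at an unadjusted p under 0.05 were 60 lower and 4 higher, the 4 being Acta2, Alas2, Gbp2 and Lcn2.

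Because the operated group pools both kinds of operated mice, the Maresin 1 minus surgery difference was tested for every gene. No gene was called by limma (0%), and 1065 had an unadjusted p under 0.05 (5.66%). Of the 30 genes with the smallest p in the pooled comparison, 6 had such a p between Maresin 1 and surgery, the lowest adjusted p being 0.859. These were Eapp (0.13 higher with Maresin 1), Sesn1 (0.16), Bpnt2 (0.21), Mtx2 (0.22), Mzt1 (0.21) and Cuta (-0.19). In each of the 6 the Maresin 1 arrays lay farther from control than the surgery arrays did in the mean. For the vessel genes the difference was -0.12 (SE 0.12) in Acta2 and -0.00 (SE 0.10) in Flt1, errors that leave room for a difference of either sign.

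Taken one by one against the same 3 controls, surgery gave 0 called genes (0%) and Maresin 1 with surgery gave 16 (0.085%). The pooled value of Acta2 lay between 0.79 for surgery and 0.67 for surgery with Maresin 1, that of Pros1 between 0.50 and 0.66, and that of Slc16a1 between 0.29 and 0.43. Endothelial genes had medians of 0.32 and 0.28, pericyte and smooth muscle genes 0.23 and 0.08, and interferon genes 0.26 and 0.19. These pairs share their control arrays and so are not independent of each other.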

How the data were processed

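RNA of 9 hippocampi was measured on 9 Affymetrix mouse arrays, from 6 µg of total RNA each, per the labels' protocols. The deposited values are intensity, a linear signal per probe set. Per the submitters' processing notes, the authors used Affymetrix Expression Console, with version and summary method not given in the sources used here. Of 35556 probe sets, 21218 name 1 gene, 1881 name several and 12457 none in the platform annotation used, and 21185 matched the RefSeq gene table. The 9 arrays were quantile normalised, 16 was added, log2 was taken, and the probe set with the highest mean stood for each gene. Differences were fitted with limma 3.58.1 in R 4.3.3 (lmFit, eBayes with trend, 2-sided, Benjamini-Hochberg over 18820 genes, called at an adjusted p under 0.05), first on 6 operated against 3 control arrays and then on 3 group means. The steps were tested on simulated data. No filter on dim genes was used, and arrays give no read depth, so their number limits the precision.

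Samples were grouped by their titles. The members and the 55 gene lists were chosen with earlier results of these data known, so counts over a list describe it and no list was tested. Genes named are the 30 with the smallest p among genes with no overlap, a mean above that of the median gene and a difference of 0.3 or more, without gene models and small RNA or receptor families, and up to 4 genes of smallest p from each list described. Genes named outside this rule, such as those of short lists of genes without overlap, were chosen after their values were seen. The alternatives were other normalisations, constants, filters, priors and weights, a replicate block, choroid plexus level as a covariate, and leaving out arrays. Array replicate numbers do not pair samples. The correlation of deviations between same-numbered arrays ran from -0.244 to 0.055, with 0 of 9 pairs over 0.1, and between other arrays from -0.148 to 0.193.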

Additional observations from a re-analysis of the deposited data

Results flagged for a closer look

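Among 85 levels and list scores examined over the 6 operated arrays, 4 had 1 array set apart from the other 5 by more than 0.625 of the range (Dixon's critical value for 6 samples). Chance alone flags about 1 in 20 groups. The level of Zfp954 was lowest in Maresin 1 replicate 3, at 7.76 against 7.85 to 7.89 in the others, a gap of 0.68 of the range. The reactive astrocyte score was highest in surgery replicate 2, at 0.25 against -0.01 to 0.05, a gap of 0.764. Surgery replicate 3 was lowest in the mitochondrial protein import score, at -0.04 against 0.01 to 0.03 (a gap of 0.758), and in the proteasome score, at -0.04 against 0.02 to 0.04 (a gap of 0.659). The causes were not tested.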

How the results depend on the processing

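No gene was called in the comparison as reported, with cyclic loess, a constant of 1 or 64, the filter on dim genes, the mean of probe sets, no trend of the prior, robust empirical Bayes (lowest adjusted p 0.0525), array weights, choroid plexus level as covariate, or control replicate 1 as the one control, where the lone array is assumed to vary like the others. Scaling to one median called 53 genes, with 967 at an unadjusted p under 0.05 and 318 without overlap, beside 1859 and 868 as reported. No normalisation gave 55, 336 and 151, the single higher call being Lcn2, and 3 group means gave 1 call. With control replicate 1 as the one control, 6462 genes did not overlap, fewer arrays having to be separated. Leaving out 1 array at a time gave 0 to 243 calls (243 without control replicate 1, of which 21 were choroid plexus genes), 1180 to 2267 genes at that unadjusted p and 1023 to 2546 without overlap. The replicate block called 0 genes, with 856 higher and 637 lower at that p, and the numbers do not pair the arrays. The sign turned in 5 of the values of single genes. Epb42 was at -0.0350 and Slc4a1 at -0.0351 with no normalisation. Leaving out 1 array gave -0.0312 (without surgery replicate 2) to 0.0692 (without Maresin 1 replicate 2) for Slc4a1. Ccl2 was at 0.0167 and Fdx2 at 7.867e-06 with control replicate 1 as the one control; the cause was not tested. All other values of the 142 named genes kept their direction. Of 1286 list medians under alternatives, 1207 moved by less than the spread between replicates and 79 by more. With 3 controls, 2 of them with choroid plexus signal, small differences were not detectable.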

Other observations

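Of the 12457 probe sets that the annotation used does not name, 302 did not overlap between operated and control arrays in either direction (2.42%), below the 3.71% of all 35556 probe sets. An unadjusted p under 0.05 was found for 950 of them and for 2924 of all probe sets. In both sets limma called 0, with a lowest adjusted p of 0.293.

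Several lists outside the report stayed close to the median of all genes. Potassium channel genes had a median of -0.00 over 87 genes, with Kcnt2 and Kcnj8 above control without overlap. Voltage-gated calcium channel genes had 5 of 23 lower and 1 higher at an unadjusted p under 0.05, at a median of -0.04, which was 0.03 after scaling to one median. Small nucleolar RNAs had 4 higher and 4 lower of 61. Enzymes and receptors of the maresin pathway had a median of 0.01 over 14 genes, with Alox5ap, which presents arachidonic acid to 5-lipoxygenase, as the single one above control without overlap. Immediate early genes, which neuronal activity induces, had a median of 0.08 over 20 genes and of -0.13 against control replicate 1 alone, with no gene free of overlap. Ependymal genes had a median of -0.01, and of 0.32 against control replicate 1 alone. All 17 were higher in control replicates 2 and 3, and in the mean of operated arrays, than in control replicate 1. The ependymal score was -0.40 in control replicate 1, the lowest array. It was -0.12 to 0.11 in operated arrays and 0.13 and 0.29 in control replicates 2 and 3. Meningeal and vascular fibroblast genes had a median of 0.01 over all controls and 0.23 against control replicate 1.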
